A study of Homo sapiens with 6 samples.

Results

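Cytosolic ribosomal protein genes encode the proteins of the large and small subunits of the ribosome. The members described here were the rows of the deposited table whose gene name was RPL or RPS with a number and at most 1 of the letters A, X or L, or was RPLP0, RPLP1, RPLP2 or RPSA, which left out pseudogenes. They were 80 of 26025 genes, 48 of the large and 32 of the small subunit, and all 80 reached the minimum mean of 10 normalized counts and were tested. RNA was sequenced in bulk from NCI-H1299, a long-established line of human non-small cell lung cancer, in 3 control (Ctrl) libraries and 3 libraries treated with norepinephrine (NE), the neurotransmitter released by sympathetic nerves. Both groups were first starved, for 8 to 12 h by the sample records, and then kept for 48 h in RPMI-1640 with 2% FBS. The NE cells received 10 µM NE, whereas for the Ctrl cells the labels give DMSO in 1 place and PBS in another as vehicle. Nothing states that the replicates were separate cultures, so the p-values measure the spread between these libraries, which may be technical. The comparison asked which ribosomal protein genes changed under NE, the stress neurotransmitter of the study, and how evenly they did so.

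A ribosome holds 1 copy of nearly every ribosomal protein, and the mRNAs of these proteins are among the most abundant of a growing cell. Most of them start with a TOP, a C followed by a run of pyrimidines at the 5′ end of the mRNA. Through this run their translation follows mTORC1, the kinase complex that senses growth factors and nutrients, by way of the cap-binding repressor LARP1. MYC and RNA polymerase I set the supply of ribosomal proteins and ribosomal RNA in many cells. These are background facts, and neither translation nor protein was measured here.

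The TOP is shown first because it is the feature these genes share and the member selection did not use. Promoter sequences from RefSeq (GRCh38.p14) matched 63 of the 80 members. At a listed start site, 46 of these 63 members (73.0%) had a C followed by at least 4 pyrimidines, against 5.14% of all 27305 genes with a listed promoter. Each window below runs from 20 bases before the start site to the tenth transcribed base, with the C and its pyrimidine run in capitals. The first 6 are members that fell with NE.
RPLP1, chr15:69452798-69452827 on the plus strand: gctgcgtataggcgcgagagCCCCTTTCCT
RPS21, chr20:62387083-62387112 on the plus strand: tgccgggtgactagctgcttCCTTTCTCTC
RPL18, chr19:48619169-48619198 on the minus strand: cgcccaccccagcccgttctCTCTTTCCgg
RPS3, chr11:75399498-75399527 on the plus strand: cttccgcccgcgagccacttCCTTTCCTTT
RPL35, chr9:124861948-124861977 on the minus strand: aggtcagccccgcctacttcCTCTTTCCCT
RPL13, chr16:89560662-89560691 on the plus strand: gtgcattgcggggccgcttcCTTTCCgctc
The next 5 are members that did not pass the test.
RPL22, chr1:6199586-6199615 on the minus strand: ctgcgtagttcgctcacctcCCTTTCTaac
RPS23, chr5:82278345-82278374 on the minus strand: ctccttcctgcggtgcttctCTCTTTCgct
RPS24, chr10:78033843-78033872 on the plus strand: ttggccggcgaatcgtggttCTCTTTTCCT
RPL36A, chrX:101390991-101391020 on the plus strand: ttccgtttgcctcgcggtttCTTTCTTTCC
RPS6, chr9:19380227-19380256 on the minus strand: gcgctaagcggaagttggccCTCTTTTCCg
The last 2 have no TOP at the listed start, and of these RPS28 fell while RPS27L did not pass the test.
RPS28, chr19:8321476-8321505 on the plus strand: ggctctccccgaagcacgtgactcctctcc
RPS27L, chr15:63157468-63157497 on the minus strand: cccggaagttgatgccgagcgcagatcgct
The TOP thus stood both in members that fell and in members that did not pass the test. Of the 46 members with a TOP 30 fell, with a median log2 fold change of -0.74, and of the 17 without a TOP at a listed start 14 fell, with a median of -0.64. For the 17 members without a listed promoter the numbers were 11 and -0.81. Of all tested genes, 25.5% were lower at the same threshold, a limma adjusted p under 0.05.

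Reads on the members took 6.94%, 7.10% and 5.995% of all reads on genes in Ctrl replicates 1, 2 and 3. In NE replicates 1, 2 and 3 they took 3.71%, 4.64% and 4.90%. Every NE library was below every Ctrl library, with means of 6.68% ± 0.60 for Ctrl and 4.42% ± 0.63 for NE (SD, n = 3), a difference of -2.26 percentage points that was larger than either SD. Without Ctrl replicate 3 the difference was -2.60 percentage points. Both subunits were lower: the large subunit held 4.02% of reads in Ctrl and 2.68% in NE, and the small subunit 2.66% and 1.73%. The log2 ratio of summed large to summed small subunit reads was 0.588 ± 0.077 in Ctrl and 0.635 ± 0.036 in NE (SD, n = 3), so that the difference of 0.05 was within the spread of the Ctrl libraries. The values are relative to each library's total, and less ribosomal protein mRNA per cell cannot be told apart from more of other RNA. Mitochondrial transcripts moved the other way, from 4.68% to 5.46% of reads in Ctrl to 6.05% to 9.26% in NE, and their part in the result was not tested. Library depth was close, with 16852751 to 17979206 reads on genes.

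**Figure D1:**
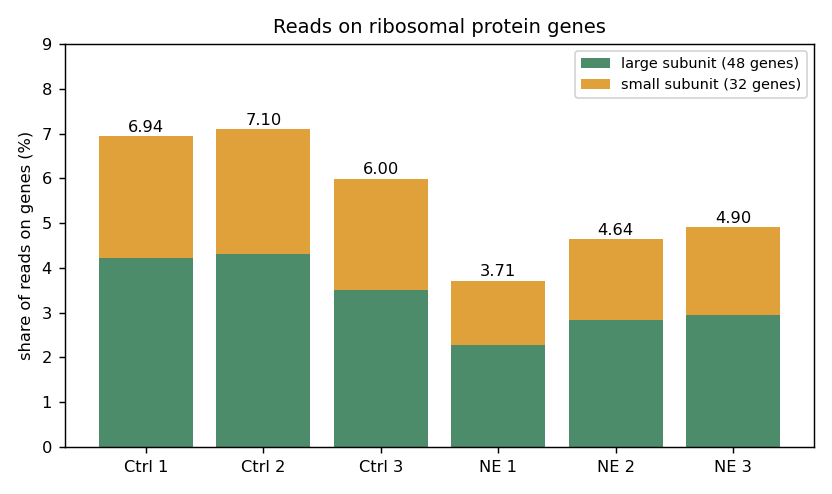
Share of all reads on genes that fell on the 48 large subunit and 32 small subunit members, as a percentage on the vertical axis, in each of the 6 libraries. The 3 NE libraries lie between 3.71% and 4.90%, below the lowest Ctrl library at 5.995%.

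The fall was broad. With limma on log2(value + 1) and Benjamini-Hochberg adjustment over all 15013 tested genes, 55 of the 80 members were lower with NE at an adjusted p under 0.05, or 68.8%, against 25.5% of all tested genes. None was higher by limma, nor at an unadjusted p under 0.05, in edgeR or in DESeq2, which each gave 0, against 24.6% of all tested genes by limma. The median log2 fold change of the members was -0.71 (from -1.37 to 0.42), against 0.01 over all tested genes. The members were strongly expressed, with a median Ctrl mean of 11576 normalized counts against 350 for all tested genes. The share was also taken among genes with a mean of at least 50, a cut far below the median of the members that does not match their level. There, 30.8% of genes were lower, and 55 of the 77 members tested. Of the small subunit 26 of 32 members fell (median -0.76), and of the large subunit 29 of 48 (median -0.69). Whether the subunits differed was not tested. In 51 members all NE libraries lay below all Ctrl libraries, which held for 28.9% of all tested genes. With the added criterion of a 2-fold change 13 members were lower, against 6.55% of all tested genes.

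**Figure D2:**
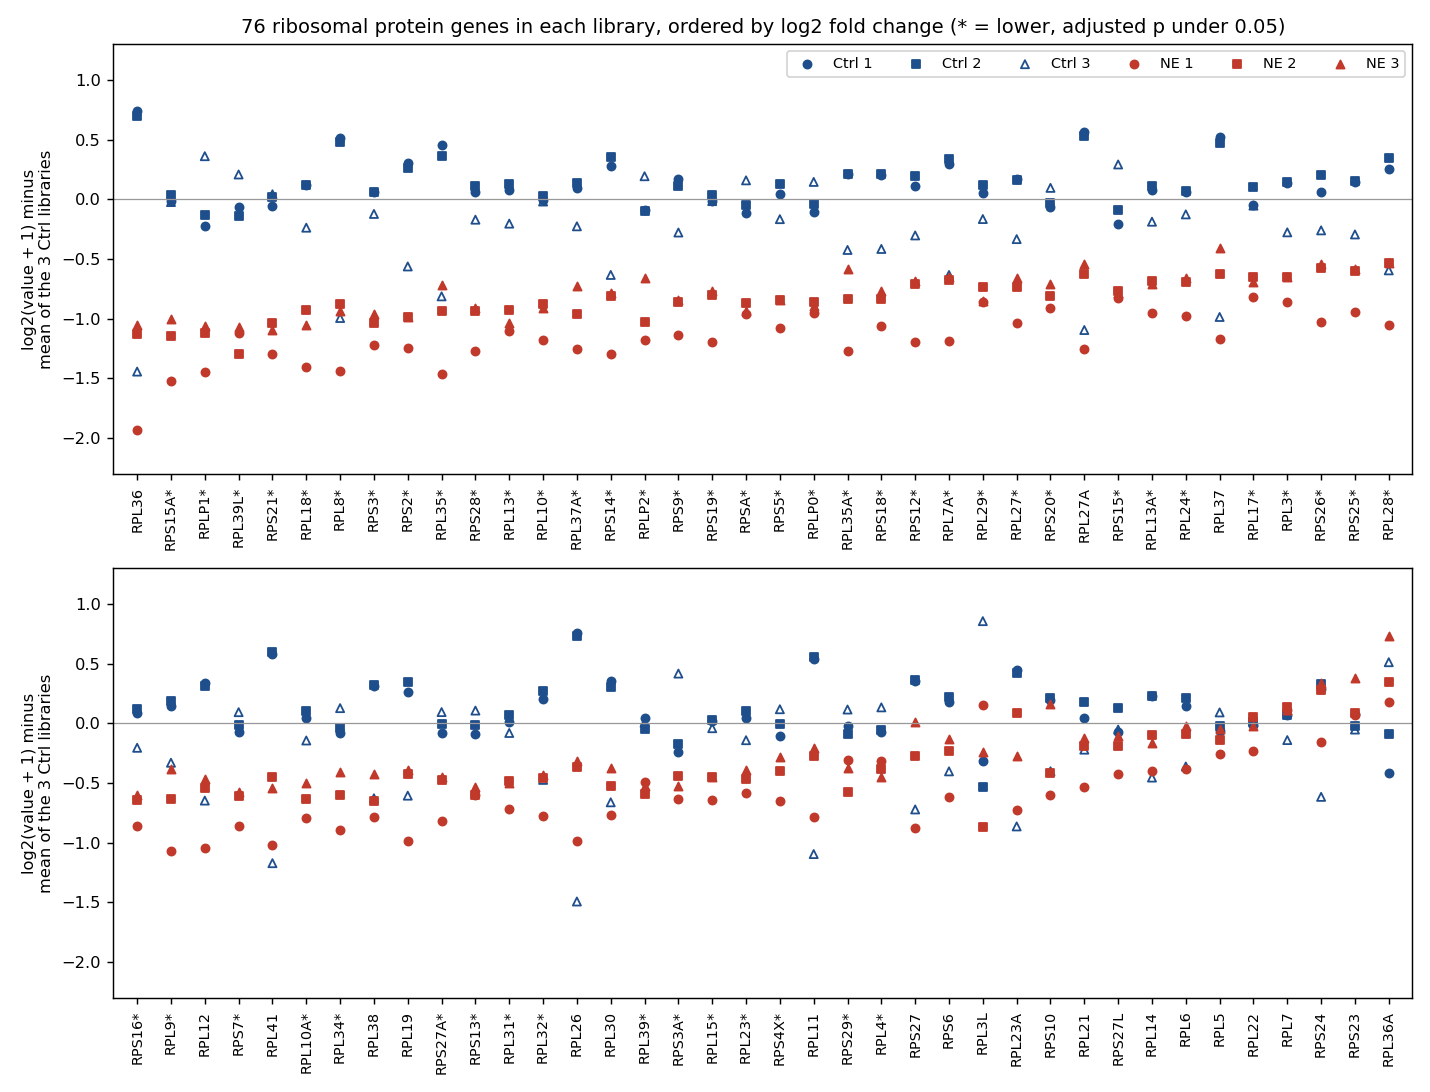
Of the 80 members, 76 in each library, as log2(value + 1) minus the mean of the 3 Ctrl libraries, ordered by log2 fold change from RPL36 to RPL36A, with an asterisk for the 51 of them that fell. Circles, squares and triangles are replicates 1, 2 and 3, blue is Ctrl and red NE, and the open triangles of Ctrl replicate 3 reach the NE libraries in 26 of these members.

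The 5 largest falls among the members that passed the test were those of RPS15A, RPLP1, RPL39L, RPS21 and RPL18. RPS15A (ENSG00000134419), a small subunit protein, had 1779, 1847 and 1769 normalized counts in Ctrl and 626, 814 and 896 in NE. The groups were far apart, at 1798 ± 42.4 and 779 ± 138 (SD, n = 3), a log2 fold change of -1.22 (SE 0.140, limma adjusted p = 0.000254). RPL39L (ENSG00000163923), the paralog of RPL39 known from testis and some tumours, had 565, 537 and 684 normalized counts in Ctrl and 272, 240 and 281 in NE. Its log2 fold change was -1.16 (SE 0.141, limma adjusted p = 0.000309), and the groups did not overlap. RPS21 (ENSG00000171858), a small subunit protein, had 6475, 6837 and 6948 normalized counts in Ctrl and 2754, 3282 and 3156 in NE, with no overlap. It fell by 1.14 on the log2 scale (SE 0.102, limma adjusted p = 9.85e-05). RPL18 (ENSG00000063177), of the large subunit, had 13000, 13035 and 10163 normalized counts in Ctrl and 4531, 6295 and 5777 in NE, a log2 fold change of -1.13 (SE 0.149, limma adjusted p = 0.000443). Its groups did not overlap either. Also past 2-fold were RPL8, RPS3, RPS2, RPL35, RPS28 and RPL13, with log2 fold changes from -1.08 to -1.02. In RPL8 and RPL35 Ctrl replicate 3 lay within the NE range. Neither passed the test once each library was corrected for GC content (limma adjusted p = 0.176 and 0.142). Of the 55 members that fell, RPL4 fell least, by 0.38.

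The P stalk, the arm of the large subunit that recruits the GTPases of elongation, fell in 3 of its 4 members. At the same threshold 68.8% of all 80 members and 25.5% of all tested genes were lower. RPLP1 (ENSG00000137818) had 29562, 31456 and 44359 normalized counts in Ctrl and 12688, 15890 and 16535 in NE. Its Ctrl replicate 3 was the highest library, and the log2 fold change was -1.21 (SE 0.167, limma adjusted p = 0.000547). RPLP0, the scaffold of the stalk and often used as a reference gene in quantitative PCR, had 61591, 64793 and 73462 normalized counts in Ctrl and 34318, 36566 and 35820 in NE. The groups were clearly apart, and the level in NE was 46.5% lower, a log2 fold change of -0.90 (SE 0.104, limma adjusted p = 0.000259). RPLP2, the partner of RPLP1, fell by 0.96 on the log2 scale, but its log2 fold change was -0.43 once each library was corrected for GC content and did not pass the test (limma adjusted p = 0.097), which left 2 of the 4 lower. RPL12, at the base of the stalk, had 20205, 19875 and 10222 normalized counts in Ctrl and 7754, 11013 and 11554 in NE, so that Ctrl replicate 3 lay within the NE range, and its log2 fold change of -0.69 did not pass the test (limma adjusted p = 0.0513).

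Of the small subunit proteins at the entry and exit of the mRNA, the 4 listed (RPS2, RPS3, RPSA and RPS26) fell. For comparison, 68.8% of all 80 members and 25.5% of all tested genes fell. RPS3, at the mRNA entry, had 25894, 25834 and 22760 normalized counts in Ctrl and 10609, 12081 and 12738 in NE, a log2 fold change of -1.07 (SE 0.108, limma adjusted p = 0.00015). RPS2, also at the entry, had 29539, 28653 and 16205 in Ctrl and 10117, 12113 and 12090 in NE, again without overlap, and fell by 1.07. RPSA, at the exit and the precursor of the laminin receptor, went from 28377 ± 2825 to 14938 ± 484 normalized counts (SD, n = 3), a log2 fold change of -0.92. RPS26, which contacts the mRNA upstream of the start codon, had a log2 fold change of -0.72. RPS27A, made as a fusion with ubiquitin, fell by 0.58, from 16434 ± 1024 to 11040 ± 1500 normalized counts (SD, n = 3). RPL13A, the member of the GAIT complex that represses translation, fell by 0.78, and RPS14 by 0.96.

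Around the exit tunnel for the nascent peptide, 4 of 6 members fell, near the 68.8% of all 80 members. Of all tested genes 25.5% fell. Once each library was corrected for GC content, 3 of the 6 were lower, against 18.9% of all tested genes. RPL35 fell by 1.04, RPL17 by 0.72, RPL39 by 0.54 and RPL4 by 0.38. RPL35 had 12465, 11721 and 5190 normalized counts in Ctrl and 3298, 4771 and 5549 in NE, so that Ctrl replicate 3 lay within the NE range. RPL39, in contrast, had 6159, 5791 and 5994 in Ctrl and 4249, 3954 and 4161 in NE, and its libraries were even in both groups (limma adjusted p = 0.00134). RPL23A had a log2 fold change of -0.31 and RPL22 one of -0.06, and neither passed the test.

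The 5S RNP, the complex of RPL5, RPL11 and 5S ribosomal RNA that can bind MDM2 and so stabilise p53, did not pass the test in either protein. RPL5 (ENSG00000122406) had 14841, 15262 and 16540 normalized counts in Ctrl and 12962, 14100 and 14991 in NE. The groups overlapped, with a log2 fold change of -0.15 (SE 0.0996, limma adjusted p = 0.234). RPL11 (ENSG00000142676) had 11159, 11259 and 3589 normalized counts in Ctrl and 4460, 6342 and 6626 in NE. Ctrl replicate 3 was below every NE library, and the log2 fold change of -0.42 (limma adjusted p = 0.388) became -0.97 (limma adjusted p = 3.2e-05) without that library. RPS6, the substrate of the S6 kinases downstream of mTORC1, had 17882, 18396 and 11932 in Ctrl and 10298, 13396 and 14438 in NE. Its log2 fold change of -0.33 (limma adjusted p = 0.171) was -0.53 without Ctrl replicate 3 (limma adjusted p = 0.00174).

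Of the genes mutated in Diamond-Blackfan anaemia, an inherited failure of red cell production, 5 of the 9 listed fell, among them RPS7, RPS19, RPS26 and RPL35A. The shares were 68.8% for all 80 members and 25.5% for all tested genes. RPS19, the gene most often affected, had 46050, 47647 and 46090 normalized counts in Ctrl and 20327, 26657 and 27323 in NE, with no overlap and a log2 fold change of -0.92 (SE 0.126, limma adjusted p = 0.000518). The other 4, RPS10, RPS24, RPL5 and RPL11, did not pass the test.

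A few members stayed near or above their Ctrl level.
RPL7, a large subunit protein, had 23453, 23439 and 20252 normalized counts in Ctrl and 24061, 24567 and 24154 in NE. It was the only member whose NE libraries all lay above all Ctrl libraries, yet the log2 fold change of 0.12 did not pass the test (limma adjusted p = 0.335). RPS24 had 9570, 9837 and 5112 in Ctrl and 7037, 9530 and 9881 in NE, and its log2 fold change of 0.15 (limma adjusted p = 0.62) was -0.15 without Ctrl replicate 3. RPS23, at the decoding centre, had 2159, 2013 and 1974 in Ctrl and 2142, 2170 and 2659 in NE (log2 fold change 0.18, limma adjusted p = 0.23). RPL22 had 2824, 2884 and 2867 in Ctrl and 2435, 2971 and 2821 in NE, so that its groups overlapped. Once each library was corrected for the GC content of exons, its log2 fold change was -0.12 (limma adjusted p = 0.356). With GC content and length of the canonical transcript it was -0.36 and passed the test (limma adjusted p = 0.011). For RPL36A the normalized counts were 30.4, 38.4 and 58.8 in Ctrl and 46.4, 52.3 and 68.5 in NE, and its log2 fold change of 0.42 was the highest of the members (limma adjusted p = 0.28).

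Ctrl replicate 3 stood apart from the other Ctrl libraries in these genes. Against the mean of Ctrl replicates 1 and 2 its median over the members was -0.31 on the log2 scale, but 0.01 over all tested genes. Over all tested genes this deviation moved with GC content (Spearman -0.51). Its median there was 0.30 under 45% GC, -0.06 between 45% and 55%, and -0.32 at 55% or more. For the members it was -0.10, -0.40 and -0.39 in the same classes. Ctrl replicate 3 also had 7305 genes at 0 reads, more than any other library (3954 to 4833). In 27 members, 21 of the large and 6 of the small subunit, Ctrl replicate 3 was at or below the highest NE library. This held for 9147 of all 15013 tested genes, which moved in both directions. Ctrl replicates 1 and 2 lay above all NE libraries in 73 members, and in 5799 of all tested genes. The gap of Ctrl replicate 3 to Ctrl replicates 1 and 2 was widest in RPL26 (-2.24) and RPL36 (-2.16), both of the large subunit. RPL36 (ENSG00000130255) had 6911 and 6707 normalized counts in Ctrl replicates 1 and 2, 1518 in replicate 3, and 1078, 1891 and 1987 in NE, so that Ctrl replicate 3 lay within the NE range. Its log2 fold change of -1.37 was the lowest of the members but did not pass the test (SE 0.517, limma adjusted p = 0.0512). Without Ctrl replicate 3 it was -2.09 (limma adjusted p = 1.06e-06). RPL26 had 1170 and 1150 normalized counts in Ctrl replicates 1 and 2, 245 in replicate 3, and 348, 537 and 555 in NE. RPL41 had 23473, 23804 and 6991 in Ctrl and 7787, 11561 and 10814 in NE. In RPL26 and RPL41 Ctrl replicate 3 was the lowest of all libraries. Without Ctrl replicate 3, limma called 71 members lower, against 32.5% of all tested genes, and 29 past 2-fold, against 10.0%, with a median of -0.86. The 16 members gained were RPL6, RPL11, RPL12, RPL14, RPL19, RPL21, RPL23A, RPL26, RPL27A, RPL30, RPL36, RPL37, RPL38, RPL41, RPS6 and RPS27. The 9 that still did not pass were RPL3L, RPL5, RPL7, RPL22, RPL36A, RPS10, RPS23, RPS24 and RPS27L. With each of the 6 libraries omitted in turn, 43 of the 55 members were lower every time. The other 12 included RPL8, RPL28 and RPL32, lower in 1 of these 6 fits, RPL35 in 2, RPL7A and RPS3A in 3, and RPL4, RPL9, RPS14 and RPS29 in 5.

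The NE libraries were not even either. NE replicate 1 was the lowest NE library in 74 of 80 members, against 5128 of 15013 tested genes. On the log2 scale its median against the mean of NE replicates 2 and 3 was -0.32 over the members, but 0.04 over all tested genes. The members that were low in Ctrl replicate 3 were mostly those that were low in NE replicate 1. Across the 80 members both deviations had a Spearman correlation of 0.69, against 0.29 over all tested genes. The 2 deviations share no library, but genes are not independent replicates and no p is given. Without NE replicate 1, 45 members were lower, 4 of them past 2-fold, and 20.9% of all tested genes were lower.

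**Figure D3:**
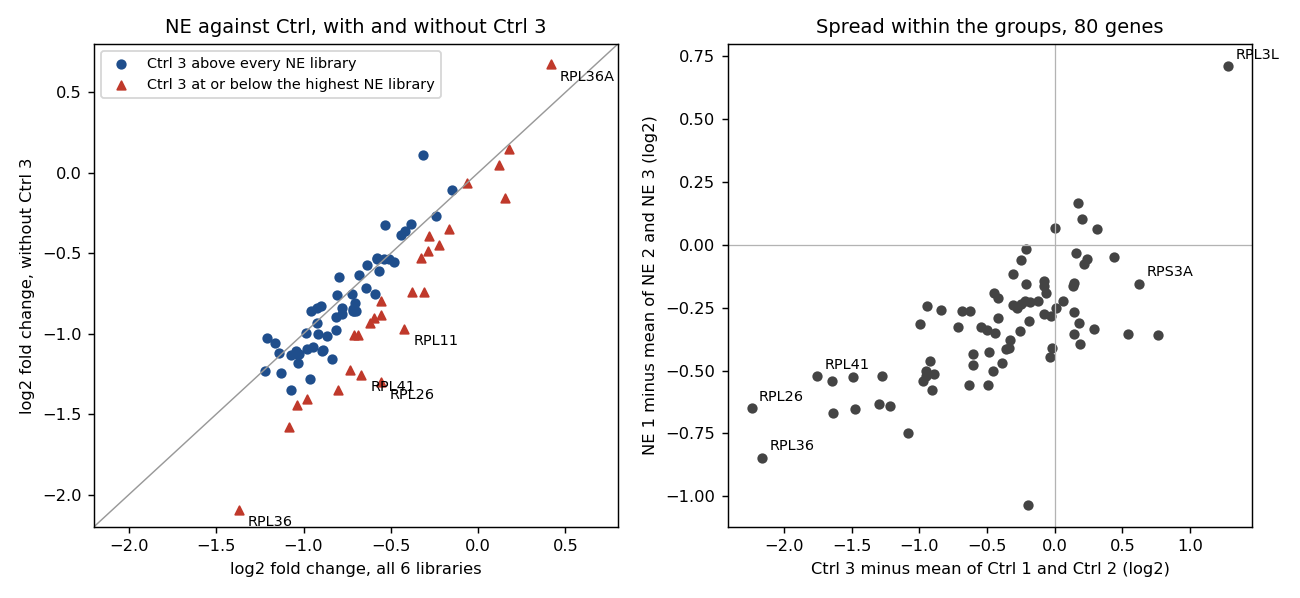
Left, log2 fold change of NE against Ctrl for the 80 members with all 6 libraries (horizontal) and without Ctrl replicate 3 (vertical), with the line of equality. Right, the log2 deviation of Ctrl replicate 3 from the other Ctrl libraries (horizontal) and of NE replicate 1 from the other NE libraries (vertical). The 27 members with Ctrl replicate 3 at or below the highest NE library (red triangles) lie mostly below the line, with RPL36 farthest at -2.09, and the deviations rise together (Spearman 0.69).

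GC content moved with the fold change, in these genes as in all genes. Across the 80 members, the Spearman correlation of the log2 fold change with the GC content of the merged exons was -0.51, and over 14955 tested genes with a GC content it was -0.64. The points share the same 6 libraries. Of the 22 members under 45% GC 13 fell (median -0.56), whereas the median of all tested genes in this class was 0.53, and 3.82% of these genes were lower. Between 45% and 55% GC 28 of 42 members fell (median -0.71, all genes -0.15), and 28.2% of all tested genes in this class were lower. At 55% GC or more 14 of 16 members fell (median -0.99, all genes -0.63), and 54.8% of all tested genes in this class were lower. In each class the median of the members was therefore below that of all genes, with the widest gap at low GC. After the trend of each library on GC content was removed, 52 members were lower and 0 higher, against 18.9% of all tested genes lower, and the median was -0.63. The order among the members turned around: the median became -0.91 under 45% GC and -0.47 at 55% or more. RPL5, the member with the lowest GC content (39.8%), then had a log2 fold change of -0.73 and passed the test (limma adjusted p = 0.000719). RPS27L and RPS6, at 41.2% and 43.5% GC, then passed as well, with -0.75 and -0.68 (limma adjusted p = 0.00252 and 0.0245). RPL8 and RPL35, at 62.2% and 60.5% GC, no longer passed, with log2 fold changes of -0.47 and -0.46 (limma adjusted p = 0.176 and 0.142). The result for RPL5 depended on the annotation. With GC content of the canonical transcript, its log2 fold change was -0.40. With length added, it was -0.19 and did not pass the test (limma adjusted p = 0.117). RPS27L and RPS6 still passed with both, at -0.86 and -0.53 (limma adjusted p = 0.00216 and 0.0418). GC content and treatment are tied in these libraries, so how much of a fold change belongs to each cannot be told apart.

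**Figure D4:**
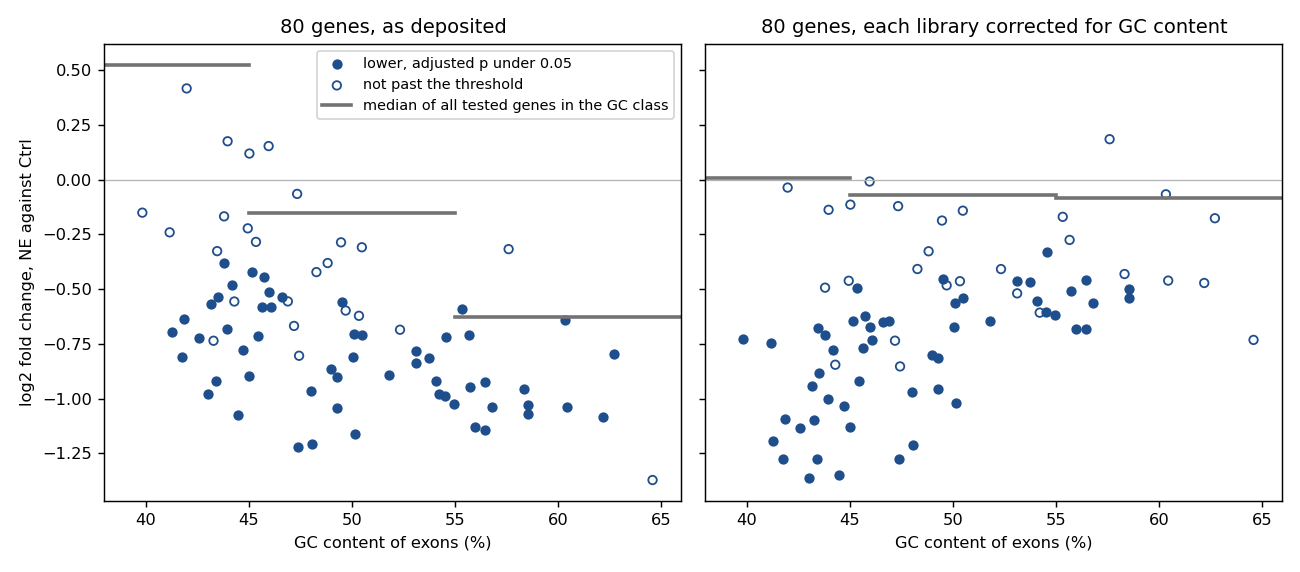
Log2 fold change of NE against Ctrl (vertical) by GC content of the exons in percent (horizontal) for the 80 members, as deposited (left) and after removal of each library's GC trend (right). Filled points passed the test, and grey bars are medians of all tested genes per GC class; the members lie mostly below the bars, by the most under 45% GC (-0.56 against 0.53 at left).

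Levels between members were compared per length, as normalized counts per kilobase of the canonical GENCODE v44 transcript. In Ctrl the highest were RPS16 with 62218 ± 7444, RPS20 with 61967 ± 3653 and RPLP0 with 60285 ± 5558 (SD, n = 3), which did not differ beyond their spread. In NE they were 38126 ± 3593, 35405 ± 2504 and 32188 ± 1036 per kilobase (SD, n = 3). The lowest in Ctrl were RPL3L with 9.54 ± 5.61, RPL36A with 55.9 ± 19.3 and RPS10 with 63.4 ± 14.5 per kilobase (SD, n = 3). RPL3L is a paralog of RPL3 known from heart and skeletal muscle. RPS10 and RPL36A are core proteins of the ribosome, and their low counts are uncertain. Of the exons of RPS10, 31.5% overlap the readthrough gene RPS10-NUDT3 on the same strand, and 22.4% of the exons of RPL36A overlap other genes. RPL17, with 253 normalized counts in Ctrl, overlaps the readthrough gene RPL17-C18orf32. Of RPS2 25.9% and of RPSA 15.8% of the exons overlap other genes. How reads in such overlaps and reads with several matches were counted is not given in the sources used here, and pseudogenes with nearly the same sequence may also hold reads of the members. Canonical transcripts ran from 295 to 7573 bases, so levels of members with long annotated ends are uncertain as well.

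Paralogs were compared with their main gene within each library, as the difference of log2(value + 1), over 7 pairs. The ratio of RPL39L to RPL39 was -3.44, -3.43 and -3.13 in Ctrl and -3.96, -4.04 and -3.88 in NE. It was lower in all NE libraries, by 0.63, although the exact two-sided permutation p of 0.1 is the smallest that 3 against 3 libraries can give (adjusted p = 0.35 over the 7 pairs). The ratio of RPL22L1 to RPL22 was lower in all NE libraries as well, by 0.39 (exact permutation p = 0.1, adjusted p = 0.35). For RPS27L to RPS27, RPL3L to RPL3, RPL36AL to RPL36A, RPL26L1 to RPL26 and RPL7L1 to RPL7 the groups overlapped, with exact permutation p from 0.6 to 0.7. No pair could pass a threshold of 0.05 with this number of libraries.

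Of the 6 listed genes of ribosomal proteins whose names the selection did not match, 2 fell, as did 25.5% of all tested genes. FAU, the precursor of the small subunit protein eS30, had 5714, 5882 and 5634 normalized counts in Ctrl and 2329, 2721 and 2592 in NE, a log2 fold change of -1.18 (SE 0.0983, limma adjusted p = 7.44e-05). Of the paralogs RPL22L1, RPL26L1, RPL36AL and RPL7L1, only RPL22L1 fell with all 6 libraries, by 0.46 (limma adjusted p = 0.0495). Without Ctrl replicate 3 it no longer passed (limma adjusted p = 0.0638), whereas RPL26L1 (-0.37, limma adjusted p = 0.00608) and RPL36AL (-0.81, limma adjusted p = 0.0115) did.

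Other genes of the translation and ribosome assembly pathways moved in both directions in the values as deposited, and many of the rises were lost after the GC correction. Of 21 tested genes of the translation machinery known for a TOP, not members but including FAU, 6 fell and 3 rose (median -0.13). This share of 28.6% lower was near the 25.5% of all tested genes. Another 24.6% of all tested genes were higher. EEF1B2, a subunit of the elongation factor complex, fell by 0.82, and EIF3E and NAP1L1 rose by 0.46 and 0.50. After the GC correction these 2 turned to -0.25, which was lower by limma (adjusted p = 0.0361), and -0.17, which did not pass. EEF1A1, the elongation factor with the most reads of this list, had a log2 fold change of -0.05 that did not pass the test (limma adjusted p = 0.713). Of 29 initiation factors 13 fell and 8 rose (median -0.21), with the largest falls in EIF6 (-1.39) and EIF3C (-1.06), which has a near-identical copy and is uncertain, and the largest rises in EIF4E (0.99), the cap-binding protein, and EIF5B (0.71). Of 19 genes of mTORC1 and other TOP regulators 7 fell and 4 rose (median -0.10). EIF4EBP1, the repressor of EIF4E, fell by 1.36 and RPS6KB2, an S6 kinase, by 0.90, while TIA1 and TSC1, the latter an inhibitor of mTORC1, rose by 0.84 and 0.83.

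For the lists below, the shares of all tested genes were again 25.5% lower and 24.6% higher. In the supply of ribosomal RNA, 6 of 15 RNA polymerase I genes fell and 3 rose (median -0.19). Its subunit gene ZNRD1 fell by 1.53 and CD3EAP by 0.88, whereas TWISTNB rose by 0.93 and the initiation factor gene RRN3 by 0.48. Of 29 genes of the snoRNPs and early processing 10 fell and 6 rose (median -0.17), with RRP9 (-1.32) and IMP3 (-1.27) at the low end and WDR75 (0.61) and NOL11 (0.51) at the high end. Large subunit assembly had 14 of 35 genes lower and 9 higher (median 0.06). Here EIF6, which also keeps the subunits apart, and BOP1 fell by 1.39 and 1.33, and NMD3, the export adaptor, and DDX18 rose by 0.78 and 0.69. Small subunit assembly had 9 of 19 genes lower and 3 higher (median -0.25), with RRP7A (-1.40) and EMG1 (-1.33) against KRR1 (1.02) and RIOK2 (0.95). Among 12 chaperones and importers of ribosomal proteins 5 fell and 3 rose (median 0.08), with RPS19BP1 (-1.17) and GRWD1 (-1.10) against TNPO1 (0.72) and IPO7 (0.68). Of the 11 genes of MYC and the factors of ribosomal protein promoters 1 fell and 5 rose (median 0.36). MYC had 3546, 3405 and 2640 normalized counts in Ctrl and 1094, 1260 and 1364 in NE, without overlap, and fell by 1.36 (SE 0.140, limma adjusted p = 0.000165). GABPA, which binds the ETS motif, rose by 1.12 and ZBTB33, which binds CTCGCGA, by 0.94.

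The GC correction lowered the median of each of these 9 lists. With it, limma called 9 genes of the TOP machinery lower and 1 higher (median -0.27), and 17 initiation factors lower and 2 higher (median -0.44). Of the mTORC1 and TOP regulators 4 were then lower and 2 higher. RNA polymerase I had 5 lower, early processing 13 and large subunit assembly 14 (median -0.24), each with 0 higher. Small subunit assembly had 11 lower and 1 higher. The chaperones and importers had 5 lower and 1 higher, and their median turned to -0.33, with TNPO1 at 0.05 and IPO7 at 0.0013, both no longer past the test. Of the genes named above as rising, only EIF4E (0.38), TSC1 (0.66), KRR1 (0.29) and GABPA (0.48) still passed the test as higher, and of those named as falling only RPS6KB2 (-0.37) no longer passed. MYC still fell, by 1.12, and its list had 2 genes lower and 5 higher. Of all tested genes 18.9% were lower after this correction.

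Motifs of the promoters were counted on both strands in the 300 bases from 250 before to 50 after the start site. CCGGAAG, the ETS motif bound by GABPA, was in 23 of 63 members (36.5%) and in 12.2% of all genes with a listed promoter. CTCGCGA was in 13 members (20.6%) and 2.82% of all genes. The full cAMP response element TGACGTCA was in 3 members (4.76%) and 2.25% of all genes, and TATAAA in 5 (7.94%) and 14.0%. No motif contains another, and a match describes letters, not binding.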

How the data were processed

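The authors sequenced TRIzol RNA as paired reads from libraries of the NEBNext Ultra kit, which does not mark strand, aligned them to hg38 with HISAT2 2.0.5, counted them per gene with featureCounts 1.5.0-p3 and ran DESeq2. The annotation used for counting is not given in the sources used here. The deposited signal, described as FPKM, holds the count of each gene after division by a size factor of its library. Dividing by the value of 1 read gave whole reads for 100% of values (tolerance 0.1), and these reads were used for shares, edgeR and DESeq2. Reads carry no molecular identifiers, and the precision rests on 3 libraries a group.

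Values were compared with limma 3.58.1 (R 4.3.3, lmFit and eBayes with trend) on log2(value + 1), which understates changes of low genes, over 15013 genes with a mean of at least 10, with Benjamini-Hochberg adjustment. A gene was called at an adjusted p under 0.05, and past 2-fold where the log2 fold change was also 1 or more in size; both limits are those of the study. The script was tested on simulated data. Groups came from the sample records, and columns were matched by group letter and replicate number. GC content and length came from GENCODE v44 for 25813 genes, and the GC correction subtracted from each library a natural spline (5 degrees of freedom). Named were the 5 members with the largest called rises and falls, all past 2-fold, members with set roles, the 3 highest and lowest per length, and 2 called genes each way in each list. RPS23, RPL36, RPL41, EEF1A1 and the members named for Ctrl replicate 3 or GC content were singled out after their values were seen. Values of a few single genes are not reported here, though the counts and medians include them. The members and lists were chosen with earlier results of these data known. Alternatives were other pseudocounts, filters and scalings, eBayes without trend, a replicate block, each library left out, edgeR 4.0.16, DESeq2 1.42.0 and corrections for GC content and length.

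As a check of the line, KRT18, KRT8 and VIM had Ctrl means of 22472, 12452 and 66719 normalized counts, and EPCAM and CDH1 of 1.31. Of the markers of immune, endothelial, erythroid and fibroblast cells, 7 of 11 were listed, with Ctrl means up to 26.7 normalized counts (PECAM1).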

Additional observations from a re-analysis of the deposited data

How the results depend on the processing

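The number of members lower with NE stayed within 1.5 times of 55 under all 22 alternatives, from 38 with quantile normalization to 71 without Ctrl replicate 3, and 31 members were lower in all 22 fits. In these 2 settings 25.3% and 32.5% of all tested genes were lower. Quantile normalization also gave 1 higher member, RPL7, 3 past 2-fold and a median of -0.435. The count past 2-fold was 5 when scaled by the genes other than the members, which moved the median of all genes to 0.11 and that of the members to -0.607, and 6 with GC and length of the canonical transcript, an alternative chosen after seeing the data. Leaving out 1 library gave 45 to 71 members lower, 0 higher, 4 to 29 past 2-fold, medians of -0.858 to -0.576, share differences of -2.60 to -1.91 percentage points and subunit ratio differences of 0.0020 to 0.0728. The share of all tested genes that were lower moved as well, from 19.7% without Ctrl replicate 2 to 32.5% without Ctrl replicate 3. The counts past 2-fold were 7 without Ctrl replicate 2, whereas leaving out Ctrl replicate 3 gave 29 and NE replicate 1 gave 4. edgeR and DESeq2 gave 58 and 60 lower, each with 26.5% of all tested genes lower. The cause of these shifts was not tested.

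Directions turned in members near 0. For RPL22 the log2 fold change was 0.0895 with quantile normalization, 0.0375 scaled by other genes and 0.0184 without NE replicate 1, and for RPL5 0.194 with quantile normalization. With the GC correction, with or without the replicate block, it was -0.0359 for RPL36A, 0.185 for RPL3L, -0.114 for RPL7 and -0.0081 for RPS24. With GC and length it was 0.282 for RPL3L and -0.083 for RPS24. With GC of the canonical transcript it was -0.0958 for RPL36A, 0.126 for RPL3L, -0.438 for RPL7, 0.0185 for RPS10 and -0.185 for RPS24, and with its length added 0.209, -0.185, 0.152 and -0.0066 for RPL3L, RPL7, RPS10 and RPS24. Without Ctrl replicate 3 it was 0.11 for RPL3L and -0.154 for RPS24, and the ratio of RPL7L1 to RPL7 differed by 0.0405. The ratio of RPS27L to RPS27 differed by -0.0736 without Ctrl replicate 1 and by -0.0175 without NE replicate 1. Over the fits that left out a library these values ran from -0.125 to 0.0184 for RPL22, from -0.586 to 0.11 for RPL3L, from -0.154 to 0.318 for RPS24, from -0.0736 to 0.475 for the RPS27L ratio and from -0.205 to 0.0405 for the RPL7L1 ratio.

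With the replicate block 51 members were lower, 12 past 2-fold, and with block and GC correction 48 and 13. The shares of all tested genes lower were 22.4% and 14.4%. Libraries with the same number did not deviate together over the tested genes (correlations of -0.163, 0.0799 and -0.151). With 3 libraries a group, this cannot tell whether libraries with the same number were paired.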

Other observations

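Pseudogenes of ribosomal proteins are processed copies of the members' mRNAs, and their counts can hold reads of the members. The table listed 279 such rows, of which 75 were tested. Of these, 23 were lower with NE by limma, or 30.7%, near the 25.5% of all tested genes. Another 6 were higher, as were 24.6% of all tested genes. The median log2 fold change of the 75 was -0.45, against 0.01 over all tested genes. All 279 rows together took 0.277%, 0.275% and 0.254% of reads on genes in Ctrl replicates 1, 2 and 3. In NE replicates 1, 2 and 3 they took 0.153%, 0.184% and 0.192%. The NE libraries were thus below all Ctrl libraries, and NE replicate 1 was the lowest, as it was for the members.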
